A study of Homo sapiens with 6 samples.

Results

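Levels of 9 genes that code for replication-independent histone variants were followed in U2932, a cell line derived from a human diffuse large B cell lymphoma. They are H2AFX, H2AFZ, H2AFV, H2AFY, H2AFJ, H3F3A, H3F3B, H1F0 and H1FX. They were chosen by gene symbol alone and make up 9 of the 34675 rows of the authors' deposited table. All 6 samples were U2932 cells infected with a short hairpin RNA construct and kept in puromycin for 3 days: 3 samples carried a hairpin against PRDM11 and 3 a scrambled control hairpin. The labels name 1 hairpin sequence against PRDM11, so a second hairpin is not part of the design, and they do not say whether the replicates were separate cultures, so every p-value measures only the spread between these samples. The authors' deposited table calls its groups condition A and condition B and does not say which is which, so results are given for A and B throughout. For PRDM11 itself the authors' deposited table gives a mean of 287.6 normalised reads for A and 542.1 for B, 1.88-fold more in B, with a DESeq adjusted p of 1.76e-08. Its A libraries (268, 272.1 and 322.7) all lay below its B libraries (565.5, 515.9 and 544.9).

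Histones package DNA into nucleosomes. Most histone protein in a dividing cell comes from clustered genes that are active during DNA synthesis and whose mRNAs end in a conserved stem-loop in place of a poly(A) tail. Variant histones come from single genes outside those clusters, which are transcribed throughout the cell cycle, mostly as ordinary polyadenylated mRNAs, and dedicated chaperones put their products into chromatin independently of DNA replication.

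Transcript sequence, read from 1 coding transcript per gene, separated H2AFX from the other 8 genes. The 3′ region of its GENCODE 29 transcript holds a histone stem-loop that begins 49 bases after the stop codon. This gene is known to make both a short stem-loop mRNA during DNA synthesis and a longer polyadenylated one. The element of H2AFX is printed beside those of 2 clustered histone genes, HIST2H2BE and HIST1H4I, to compare them, with the 16 stem-loop bases in capitals and 5 bases on each side.
H2AFX: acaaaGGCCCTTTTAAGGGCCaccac
HIST2H2BE: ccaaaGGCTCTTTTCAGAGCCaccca
HIST1H4I: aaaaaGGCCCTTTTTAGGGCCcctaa
The consensus histone stem-loop was searched on the sense strand of annotated transcripts. It was found in 1 of the 9 genes (11.1%), in 26 of 62 clustered histone genes (41.9%) and in 40 of all 58676 GENCODE genes (0.0682%). The 9 genes were searched in 1 coding transcript each and the other sets in every annotated transcript, so these shares are not measured alike. A polyadenylation signal (AATAAA or ATTAAA) lay in the last 50 bases of at least 1 annotated coding transcript of 8 of the 9 genes, H2AFX included. H2AFY was the exception, with neither hexamer in that window in any of its 5 annotated coding transcripts. How libraries were selected for poly(A) RNA is not given in the sources used here, so these ends are read from the sequence and not from the data.

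A second sequence feature bears on how far the reads of the H3.3 genes can be assigned. H3F3A and H3F3B code for the same protein, the replacement form of histone H3, but their coding sequences were identical at only 323 of 411 positions (78.6%). Bases 169 to 228 of the coding sequence show how they differ, with the 17 positions at which the genes differ in capitals. The same stretch of the processed pseudogene H3F3AP4 follows, which has 0 differences from H3F3A.
H3F3A: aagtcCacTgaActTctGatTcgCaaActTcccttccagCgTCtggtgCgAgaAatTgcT
H3F3B: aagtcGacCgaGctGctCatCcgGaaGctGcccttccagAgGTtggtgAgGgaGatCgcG
H3F3AP4: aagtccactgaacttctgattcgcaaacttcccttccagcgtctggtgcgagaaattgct
The whole 411-base coding sequence of H3F3A recurs in H3F3AP4 without a difference. Every stretch of 50 coding bases of H3F3A (100%) was also found, on either strand, in the transcript of another gene. The share was 42% for H1FX, 30.8% for H2AFV, 26.5% for H3F3B and 17.8% for H2AFZ. It was 12.1% for H2AFY, 1.31% for H2AFX and 0% for H2AFJ and H1F0. How reads that match several genes were counted is not given in the sources used here, so the level of H3F3A is uncertain in a way that the levels of H1F0 and H2AFJ are not.

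Whole reads per library were recovered from the deposited means for 34442 of the 34675 rows, all 9 histone variant genes included. For 4 of the 9 (H2AFX, H2AFZ, H2AFY and H3F3B) the search left 2 to 8 candidate solutions, and the deposited fold and p-value picked 1 of them. Libraries are numbered 1 to 3 within a condition by falling size factor and are not tied to the replicate numbers of the labels. The recovered reads summed to between 26208619 (A3) and 40162502 (A1) per library. B cell markers were present: all 8 had a mean of at least 50 in both conditions, with summed means of 418767 in A and 329901 in B. All 4 measured T and NK cell markers together summed to 23 and 14, and the 5 measured myeloid markers to 67 and 54. The 6 epithelial and fibroblast markers summed to 1352 and 1325, nearly all of it EPCAM (1285 and 1242). The median log2 ratio over 12157 genes whose mean reached 100 was -0.00, and scaling by summed means would shift every log2 ratio by 0.07.

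None of the 9 histone variant genes passed the authors' test. At a DESeq adjusted p under 0.05 in the authors' deposited table, 0 of 9 were called, beside 881 of all 34675 rows (2.54%), of which 335 were higher in condition A (0.966%) and 546 lower (1.57%). At an unadjusted p under 0.05, 1 of the 9 was called (H1F0), beside 9.61% of all rows. limma on the recovered reads also called 0 of 9 at an adjusted p under 0.05, beside 9.21% of 17380 genes tested (3.96% higher in A). The direction leaned to condition A: 7 of 9 had the higher mean there and 2 the lower, with a median log2 ratio of A over B of 0.23, while 49.6% of the 13565 rows with a mean of at least 50 were higher in A and their median was -0.00. In 4 of the 9 all 3 A libraries lay above all 3 B libraries, beside 16.7% of 13332 genes whose mean reached 50 (34.8% for no overlap in either direction). In total RNA of a whole culture, a change in RNA per cell and a change in the share of cells that hold it cannot be told apart.

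**Figure D1:**
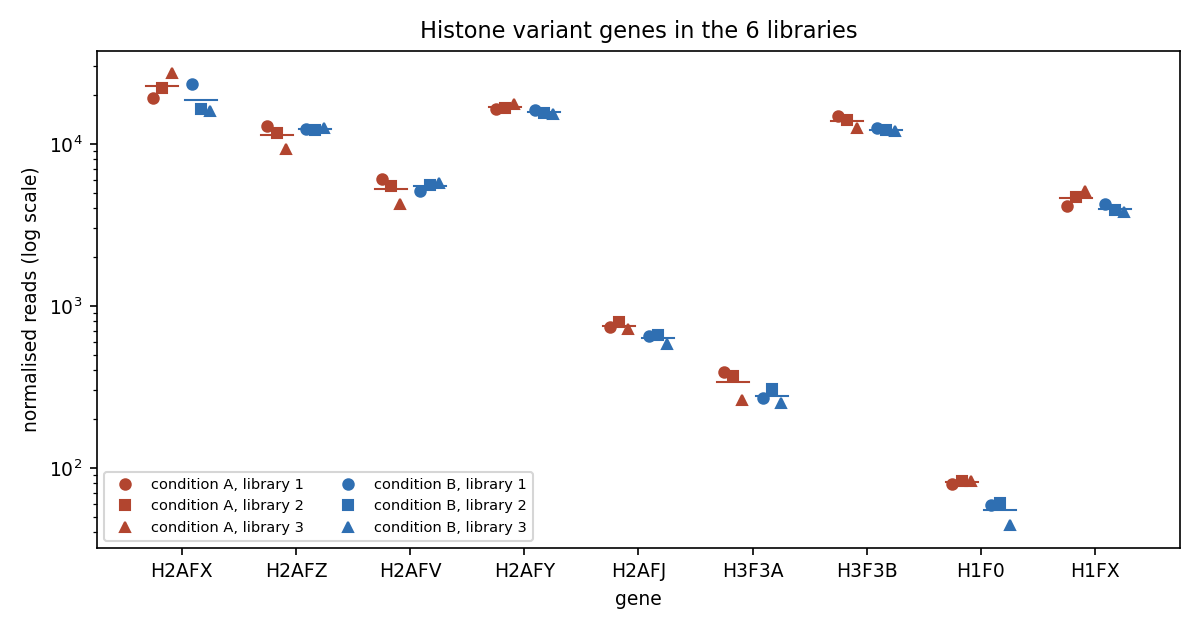
Normalised reads (log scale) of the 9 histone variant genes in the 6 libraries; red marks condition A, blue condition B, the symbol the library number, and each bar the mean of 3 libraries. H2AFY, H2AFJ, H3F3B and H1F0 have all A libraries above all B libraries, and the 2 conditions overlap for the other 5 genes.

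The H2A variants were measured at very different depths and with very different spread. H2AFX (ENSG00000188486; coding sequence in 1 block at chr11:118965676-118966104, hg19) codes for H2A.X, the variant phosphorylated around DNA double-strand breaks. Its normalised reads were 19139, 21996 and 27207 in the A libraries and 23432, 16459 and 15937 in the B libraries. B1 lay above A1 and A2, so the conditions overlapped. The means were 22781 ± 4091 in A and 18609 ± 4185 in B (SD, n = 3 each), a log2 ratio of 0.29; the authors' deposited table gives an adjusted p of 1 by DESeq. limma gave 0.30 (SE 0.16, 95% interval -0.05 to 0.65, adjusted p = 0.254), an interval that holds 0 as well as a 1.5-fold difference, and its estimate was 0.16 without A3 and 0.48 without B1. The spread of H2AFX was wide for so deeply counted a gene: its coefficient of variation was 18% in A and 22.5% in B, larger than that of 88.2% and 98.8% of 11924 genes whose mean reached 100, with medians of 8.67% and 6.94%.

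H2AFZ (ENSG00000164032; coding sequence in 5 blocks within chr4:100869622-100871327) and H2AFV (ENSG00000105968; 6 blocks within chr7:44869746-44887570) code for the pair of H2A.Z isoforms, which mark nucleosomes beside promoters and enhancers. Their coding sequences were identical at 311 of 387 positions (80.4%). They were the only 2 of the 9 genes with the lower mean in condition A. H2AFZ had 12913, 11680 and 9314 normalised reads in the A libraries and 12269, 12102 and 12557 in the B libraries. The 3 B libraries lay within the range of A, and A3 was the lowest of the 6. Its log2 ratio was -0.12 from means of 11302 ± 1829 and 12309 ± 230 (SD, n = 3 each), with a limma 95% interval of -0.38 to 0.11 (adjusted p = 0.448), and by limma it was -0.00 without A3 and -0.24 without A1. H2AFV had 6040, 5512 and 4263 normalised reads in A and 5082, 5526 and 5756 in B, again with A3 lowest. Its log2 ratio was -0.05 (limma 95% interval -0.33 to 0.21, adjusted p = 0.771), and without library A3 the sign turned, to 0.08.

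H2AFY (ENSG00000113648; coding sequence in 10 blocks within chr5:134670669-134724783) codes for macroH2A, whose large non-histone macro domain sets it apart from other H2A variants and which is enriched on the inactive X chromosome. It had 16287, 16615 and 17528 normalised reads in A and 16050, 15501 and 15251 in B, a coefficient of variation of 3.83% and 2.62%. The conditions did not overlap, by a narrow margin between A1 and B1. The log2 ratio was 0.11 (means 16810 ± 643 and 15600 ± 409, SD, n = 3 each), limma's 95% interval was -0.05 to 0.26 (adjusted p = 0.341), and the authors' deposited table gives an adjusted p of 1 by DESeq. Of the stretches of 50 bases in its transcript, 12.5% also occur in C5orf66, whose reads may not be separable there. H2AFJ (ENSG00000246705; coding sequence in 1 block at chr12:14927405-14927791) codes for H2A.J, a mammalian H2A variant described in senescent cells. It had 735.3, 789 and 715.8 normalised reads in A and 652.5, 658.7 and 579.6 in B. Every A library was above every B library. The log2 ratio was 0.24 (means 747 ± 37.9 and 630 ± 44, SD, n = 3 each), with a limma 95% interval of 0.04 to 0.45 that excludes 0 before adjustment (adjusted p = 0.123). The authors' deposited table gives an adjusted p of 0.563 by DESeq for H2AFJ.

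Of the H3.3 pair, H3F3B carried nearly all the assigned reads, per gene and per kilobase. H3F3B (ENSG00000132475; coding sequence in 2 blocks within chr17:73774675-73775255) had 14892, 13996 and 12510 normalised reads in A and 12503, 12122 and 12000 in B. The conditions did not overlap, but A3 and B1 were nearly equal. Its log2 ratio was 0.18 (means 13799 ± 1203 and 12208 ± 262, SD, n = 3 each), with a limma 95% interval of -0.01 to 0.35 (adjusted p = 0.196); the authors' deposited table gives an adjusted p of 0.68 by DESeq. H3F3A (ENSG00000163041; 3 blocks within chr1:226252053-226259177) had 392, 366.7 and 262.9 normalised reads in A and 268.5, 308.4 and 252.4 in B. A3 fell among the B libraries. The log2 ratio was 0.30 (means 341 ± 68.4 and 276 ± 28.8, SD, n = 3 each), with a limma 95% interval of -0.06 to 0.63 (adjusted p = 0.266); the authors' deposited table gives an adjusted p of 0.709 by DESeq.

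The pseudogene with the H3F3A coding sequence held more reads than the gene. H3F3AP4 had 663.3, 606.6 and 446.4 normalised reads in A and 485.7, 466.4 and 446 in B. Within A its libraries had the same order as those of H3F3A, an order that H3F3B, H2AFZ and H2AFV also had. Within B the order differed: H3F3A was highest in B2 and H3F3AP4 in B1. Its log2 ratio was 0.30, equal to that of H3F3A to 2 decimals (the authors' deposited table gives an adjusted p of 0.616 by DESeq). H3F3C, an intact retrocopy that codes for a further H3 variant, matched H3F3B at 327 of 411 coding positions (79.6%) when placed without gaps. An insertion or deletion would lower that count, so it is no measure of how close the 2 genes are. Of the stretches of 50 bases in the H3F3B transcript, 8.28% also occur in H3F3C. H3F3C averaged 476.2 normalised reads for A and 380.1 for B (log2 ratio 0.33). The authors' deposited table gives H3F3C an adjusted p of 0.283 by DESeq. Reads of a parent gene and of its copies cannot be fully told apart at these shared stretches. Among all 12 measured pseudogenes of the 9 genes, 0 passed the DESeq test. The 5 of the 12 with a mean of at least 50 had a median log2 ratio of 0.23, and 4 of those 5 were higher in A, H2AFZP3 (-0.04) being the exception.

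The linker histones bind the DNA between nucleosomes. H1F0 (ENSG00000189060; coding sequence in 1 block at chr22:38201552-38202133) codes for the linker histone that accumulates in differentiated and slowly dividing cells. It was the least abundant of the 9 genes and had the largest ratio: 79.4, 82.89 and 83.29 normalised reads in A, against 58.66, 60.92 and 44.18 in B. The A libraries were nearly equal and all above B, and B3 was the lowest of the 6. These values come from only 96, 85 and 64 reads in A and 64, 64 and 42 in B. The coefficient of variation was 2.61% in A and 16.6% in B. Pooled over the 2 conditions, the spread was less than random counting alone would give, so the near-equality in A is no sign of precision. The means were 81.9 ± 2.14 and 54.6 ± 9.08 (SD, n = 3 each), a log2 ratio of 0.58. The authors' deposited table gives H1F0 an unadjusted DESeq p of 0.0134, which is rank 1908 among all rows, and an adjusted p of 0.243. limma gave a log2 ratio of 0.59 (SE 0.17, 95% interval 0.22 to 0.96) and an adjusted p of 0.0535, just short of the threshold.

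H1FX (ENSG00000184897; 1 block at chr3:129034107-129034745) codes for H1X, another linker histone, and had 4131, 4668 and 5143 normalised reads in A and 4227, 3903 and 3766 in B. A1 was below B1, so the conditions overlapped. The log2 ratio was 0.23 (means 4648 ± 506 and 3965 ± 237, SD, n = 3 each), with a limma 95% interval of 0.02 to 0.43 (adjusted p = 0.156); the authors' deposited table gives an adjusted p of 0.648 by DESeq. An antisense gene, H1FX-AS1, shares part of the transcript of H1FX (17.2% of its stretches of 50 bases), and since the strand setting of the counting is not given in the sources used here, reads of the 2 genes may not be separable.

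**Figure D2:**
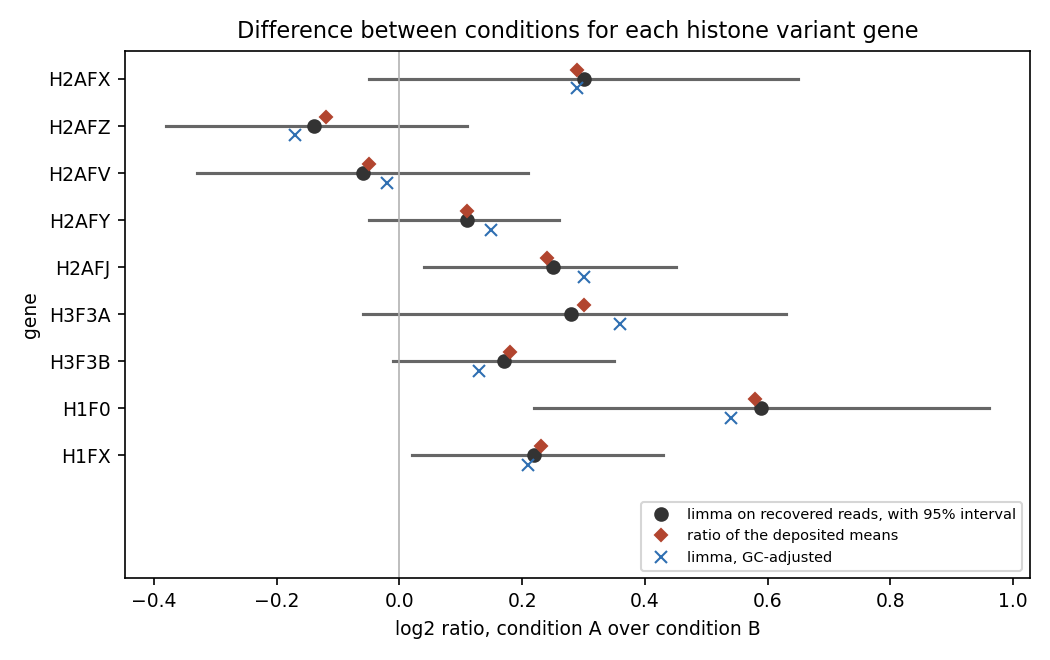
log2 ratio of condition A over condition B for each histone variant gene: the ratio of the deposited means (red diamonds), the limma estimate from 3 against 3 libraries with its 95% interval (black), and limma after adjusting each library for GC content (blue crosses). The interval lies above 0 for H2AFJ, H1F0 and H1FX before adjustment for multiple testing, as for 12.8% of 17380 genes, and holds 0 for the other 6 genes (27.4% of all genes exclude 0 in either direction).

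Libraries differed with GC content, A3 the most. Over 11725 genes whose mean reached 100, the deviation of A3 from the mean of the 6 libraries correlated with transcript GC content at r = 0.51 across genes, with a median of -0.15 (log2) for genes under 45% GC and 0.16 for genes over 55%; genes are not independent replicates, so this is a description. The same correlation was -0.44 for A1, 0.08 for A2, 0.36 for B1, -0.38 for B2 and -0.42 for B3. These correlations, and the GC adjustment, used the longest transcript of each gene. The percentages given for the 9 genes are those of 1 coding transcript each. Among the histone variant genes, the GC-rich H2AFX (66.4%) and H1FX (68.6%) were higher in A3 than in A1, by 0.51 and 0.32 on the log2 scale, but H2AFJ (62.9%) was not (-0.04). The H2AFJ transcript has 644 bases against 3356 bases of merged exons, so its GC content may not describe all counted bases. H3F3A (38.5% GC), H2AFZ (46.6%) and H2AFV (50%) were lower in A3, with log2 ratios of A3 over A1 of -0.58, -0.47 and -0.50. Over the 9 genes the ratio of A3 to A1 had r = 0.86 with GC content and that of B3 to B1 had r = -0.53, again as descriptions of libraries that share these genes. A1 and A3 tilt in opposite directions, so their ratio does not single out A3.

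**Figure D3:**
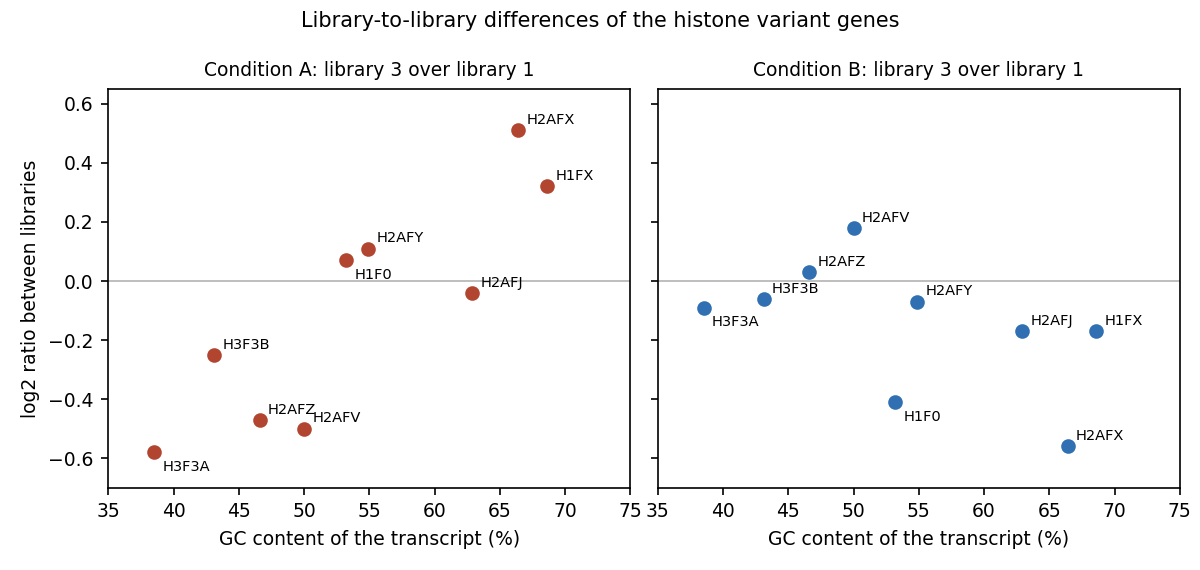
log2 ratio of library 3 over library 1 within condition A (left) and within condition B (right) for each histone variant gene, against the GC content of 1 coding transcript of the gene in percent. In condition A the ratio ranges from -0.58 for H3F3A to 0.51 for H2AFX, and in condition B H2AFX is lowest at -0.56.

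With GC content adjusted in each library, an alternative chosen after seeing the data, limma called 3 of the 9 genes higher in condition A, beside 9.49% of 16849 genes called in that direction and 19.8% called in either. The 3 were H2AFJ (log2 ratio 0.30, adjusted p = 0.0318), H1F0 (0.54, adjusted p = 0.0382) and H1FX (0.21, adjusted p = 0.0217). H2AFX kept a log2 ratio of 0.29 with a smaller standard error (0.09) and an adjusted p of 0.0517 by limma. Without library A3, limma called 2 of the 9 genes, H3F3A (0.46) and H3F3B (0.24), beside 3.77% of genes called higher in A and 9.8% in either direction. Which of the 9 genes pass therefore differs between these fits, and the part that GC content plays in each ratio was not tested. In simulated reads for this comparison, run on 17406 genes, limma found 81 of 100 genes changed 1.5-fold and 100 of 100 changed 2-fold. All of the 9 genes but H1F0 had ratios of 1.23 or less (A over B), which the simulation did not cover. The share found at means as low as those of H1F0 (81.86 in A and 54.59 in B) was not tested separately. Nor was it tested separately for a spread as wide as that of H2AFX or for libraries that differ with GC content.

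Per kilobase of merged exons (GENCODE 29), the order of mean levels was the same in both conditions. H2AFX was highest, at 14115 normalised reads per kb in A and 11530 in B, followed by H2AFZ (4908 and 5345), H1FX (3084 and 2631) and H3F3B (2250 and 1990). H2AFV (1110 and 1149) and H2AFY (948 and 880) came next, and their libraries overlapped in A, so their order there is within the spread. H2AFJ (222 and 188), H3F3A (108 and 87.9) and H1F0 (34.9 and 23.3) were lowest, and all other neighbours in the order were separated in every library of a condition. The place of H3F3A rests on the reads assigned to it and is uncertain. Its identical coding copy H3F3AP4 averaged 572.1 and 466.1 normalised reads, against 340.5 and 276.5 for H3F3A. Per kilobase of coding sequence H2AFX stayed first, at 53102 and 43378, and H3F3B moved up to 27710 and 24514, overlapping H2AFZ (29434 and 32055) in A. H1FX moved from rank 3 to rank 6, at 7273 and 6205. It then lay below H2AFY (13722 and 12735) and H2AFV (11927 and 12341), whose libraries overlapped in both conditions. The places of H1FX, H3F3B (rank 4 to rank 3) and H2AFY (rank 6 to rank 4) therefore depend on the length used. Merged exons can also be much longer than 1 transcript. For H2AFY they span 17730 bases against 2789 in its coding transcript, while for H1FX both lengths are 1507.

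Reads of genes that code for like proteins were also set against each other within each library; these ratios are not corrected for length, and only their change between conditions is compared. The log2 ratio of H3F3B to H3F3A reads was 5.25, 5.25 and 5.57 in A and 5.54, 5.30 and 5.57 in B, a difference of -0.11 (exact 2-sided permutation test p = 0.4), which ranged from -0.22 (without A3) to -0.06 with a library left out. That of H2AFZ to H2AFV was 1.10, 1.08 and 1.13 in A and 1.27, 1.13 and 1.13 in B, a difference of -0.07 (exact permutation p = 0.2), or -0.03 without B1. Both genes of this pair were low in A3, and their ratio there was close to that in A1 and A2. The log2 ratio of H1F0 to H1FX was -5.70, -5.82 and -5.95 in A and -6.17, -6.00 and -6.41 in B, a difference of 0.37 with no overlap (exact permutation p = 0.1, the smallest that 3 against 3 allows). Adjusted over the 3 pairs tested, the exact p-values were 0.4, 0.3 and 0.3.

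The other genes of histone biology were counted over whole lists, and medians were taken where the mean reached 50, since ratios of low counts are imprecise. For the clustered replication-dependent histone genes, DESeq in the authors' deposited table called 16 of 62 higher in condition A and 0 lower, beside the background of 0.966%. The 20 whose mean reached 50 had a median log2 ratio of 0.71 with 17 above 0, while all 62 rows had a median of 0.42 with 39 above 0 and 23 below. Earlier results on these samples had already shown this list to differ, so its count is not independent evidence of its direction. The 4 with the smallest p, all higher in A, were HIST2H2BE, HIST1H4I, HIST1H2BJ and HIST1H2BF, which code for H2B except HIST1H4I, an H4 gene. The authors' deposited table gives HIST2H2BE 551.6 and 186.6 mean normalised reads for A and B and an adjusted p of 8.69e-12 by DESeq, a log2 ratio of 1.56. For HIST1H4I the authors' deposited table has 211.9 and 55.55, which is 1.93 on the log2 scale (DESeq adjusted p = 4.64e-07). The log2 ratios were 0.78 for HIST1H2BJ and 1.41 for HIST1H2BF, with adjusted p-values by DESeq of 3.96e-06 and 2.44e-05, per the authors' deposited table. HIST2H2BE had 572.3, 615.4 and 467.2 normalised reads in A and 145.7, 182.8 and 231.4 in B, with no overlap. Of the 20 clustered genes whose mean reached 50, 14 had all A libraries above all B libraries, beside 16.7% of the 13332 genes whose mean reached 50. The other 6 overlapped, as H2AFX did. limma called 18 clustered genes higher in A, beside 3.96% of the 17380 genes tested, and 1 lower. The lower one was the linker histone gene HIST1H1B (-0.84). The number higher fell to 7 when library A2 or B2 was left out, to 9 without B3 and to 11 with GC adjustment. No test of the difference between the clustered genes and the variants was made.

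**Figure D4:**
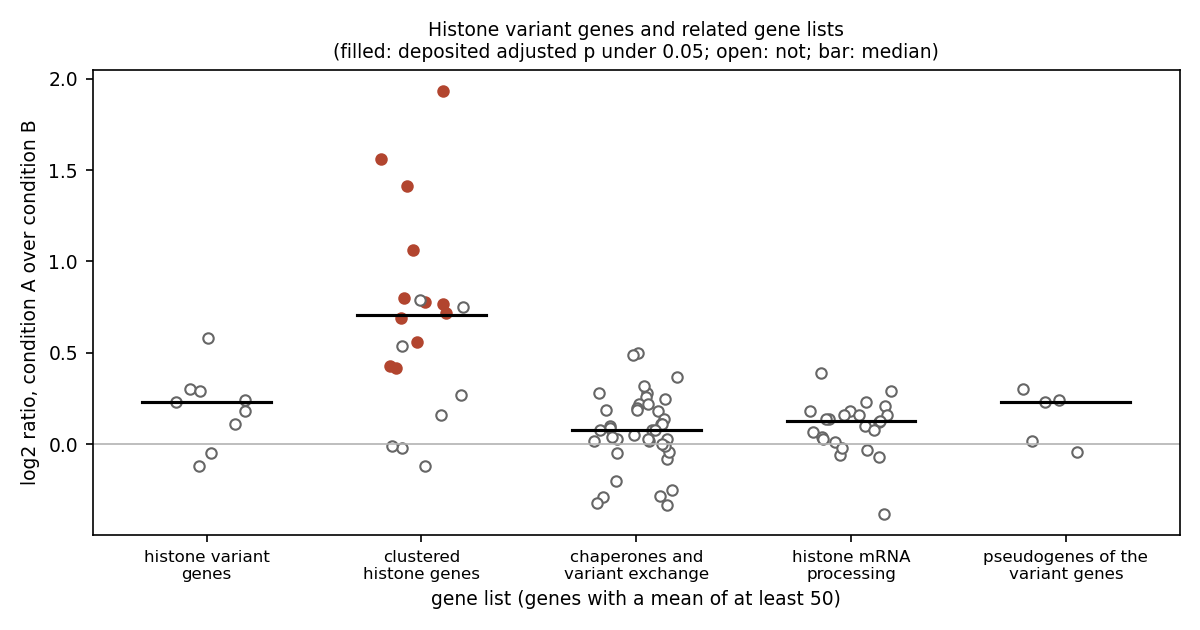
log2 ratio of condition A over condition B, 1 point a gene with a mean of at least 50, for the histone variant genes and 4 related lists; filled points have a deposited adjusted p under 0.05 and the bar is the median. The medians are 0.23 for the variant genes, 0.71 for clustered histone genes, 0.08 for chaperones, 0.12 for histone mRNA processing and 0.23 for pseudogenes, and filled points appear only among the clustered genes.

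Of 16 further replication-independent histone genes, 7 had a row and 0 were called by DESeq. Only CENPA, the centromeric H3 variant, and H3F3C had a mean of at least 50. CENPA had 1804, 1830 and 1644 normalised reads in A and 1543, 1337 and 1327 in B, with no overlap and a log2 ratio of 0.33; the authors' deposited table gives an adjusted p of 0.138 by DESeq. Histone chaperones and variant exchange factors include the HIRA, DAXX and SRCAP complexes that load H3.3 and H2A.Z. They numbered 0 calls among 41 in the authors' deposited table by DESeq. The 40 with a mean of at least 50 had a median log2 ratio of 0.08, 29 of them above 0. DAXX, the 1 gene under that mean, averaged 1.103 normalised reads in A and 0.6346 in B, too few to compare. limma had values per library for 34 of the 40 and called 2 of them higher, beside 3.96% of the 17380 genes tested. They were ANP32A (log2 ratio 0.37), an acidic nuclear phosphoprotein, and EP400 (0.50), an ATPase of an H2A.Z exchange complex. Factors of clustered histone transcription and 3′ end processing gave 0 of 24 calls by DESeq, a median of 0.12 and 19 of 24 above 0, and limma called 1 of 24, UPF1 (0.29), an RNA helicase of mRNA decay. The shares called by limma are close to the background. The shares above 0 were larger than over all rows with a mean of at least 50: 72.5% of the chaperones and 79.2% of the processing factors, against 49.6%. That difference was not tested. ANP32A, EP400 and UPF1 are named because limma called them, a choice made after their values were seen.

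The genes whose pattern over the 6 libraries was most like that of H1F0, the variant gene with the smallest p, were SRR (Pearson r = 0.988), RAMACL (0.987) and CMTM7 (0.986), out of 11924 genes whose mean reached 100. With only 6 libraries, 254 genes had r above 0.9, so the likeness describes these libraries and no more. Their log2 ratios of A over B were 0.14, 0.45 and 0.40, and the authors' deposited table gives none of them an adjusted p under 0.05 by DESeq.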

How the data were processed

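RNA of 6 U2932 samples (3 per group) was sequenced; the submitters' processing notes name STAR, HTSeq 0.5.4p5, DESeq 1.14.0 and hg19. Per the file headers, the authors' deposited table holds normalised signal (reads divided by size factors, averaged per condition), the fold ratio, its log2 and DESeq p-values with their adjustment over all rows. A deposited interval file with a score per coding interval served only for coding positions. Whole reads per library were recovered from the deposited means by an integer search; recomputing the authors' DESeq p from them came within 0.1% of the deposited one for all 33766 rows with a single solution. The count test planned for deposited counts was not run, since the file holds a comparison. limma 3.58.1 was fitted to log2(normalised reads + 1) for genes with a mean of at least 10, in R 4.3.3, and tested on simulated data. SDs are over 3 libraries; log2 ratios are A over B. Sequences come from GENCODE 29 (GRCh38). Named outside the 9 genes are PRDM11, list members past the threshold (or the 4 of smallest p), and the 3 genes most like the variant of smallest p; CENPA, H3F3C, H3F3AP4, H2AFZP3, C5orf66, H1FX-AS1, EPCAM and the genes called only by limma were named outside this rule, after their values were seen. The genes, lists and tests were chosen with earlier results of these data known.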

Additional observations from a re-analysis of the deposited data

How the results depend on the processing

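The 9 log2 ratios kept their sign under other scalings, pseudocounts, limma and GC adjustment. Leaving out libraries 1 at a time in limma, only H2AFV turned, to 0.08 without A3. The number of variant genes higher in A ranged from 0 to 2 in those fits (2 without A3, H3F3A and H3F3B) and was 3 with GC adjustment. Of the clustered genes, 9 were higher at an adjusted p under 0.01, 7 to 20 with a library left out and 11 with GC adjustment. The number lower was 1 by limma, also with a pseudocount of 0.5 and with GC adjustment, and 0 to 1 with a library left out. Chaperone calls numbered 1 at an adjusted p under 0.1, 1 when p was adjusted over rows whose mean reached 10, and 2 by limma; processing calls numbered 1 by limma. Leaving out A2, B2 or B3 cut all limma calls from 1600 to 367, 343 and 372; the cause was not tested. No paired analysis was possible because the deposited table carries no replicate numbers. Rows above the search limit (233) have no values per library.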
